A study of Homo sapiens with 12 samples.

Results

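The Krüppel-like factor (KLF) genes followed here are KLF2, KLF3, KLF4, KLF5, KLF6, KLF7, KLF9, KLF10, KLF11 and KLF13, taken by their exact names from the tables of KURAMOCHI (Ku) and COV362 (Cov) cells. They are 10 of the 14251 active genes, which exceeded 1 FPKM in any of the 12 libraries, and of 23713 rows in each table. FPKM counts sequenced fragments relative to the length of the transcript and the size of the library. KURAMOCHI and COV362 are established ovarian cancer cell lines, grown in RPMI or DMEM medium. Cells of each line received the vehicle DMSO, or THZ1 at 50 nM or 250 nM, for 6 hr, with 2 replicate libraries per group and no transgene in any group. THZ1 binds covalently to the kinases CDK7, CDK12 and CDK13, which phosphorylate RNA polymerase II. The comparisons ask how the mRNA of each KLF gene responded to either dose in either line.

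KLF proteins bind DNA through zinc fingers at their carboxyl end, and most recognise GC-rich boxes or CACCC boxes in promoters. What sets the members apart is the other end of the protein. KLF2, KLF4, KLF5, KLF6 and KLF7 mostly activate transcription, through histone acetyltransferases. KLF3 represses through the corepressor CtBP, and KLF9, KLF10, KLF11 and KLF13 carry a domain that recruits the SIN3A corepressor. Many KLF genes are induced quickly by serum, hormones or stress, and their mRNAs tend to be short-lived. KLF5 is best known from proliferating epithelia.

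The DNA just upstream of RefSeq start sites is shown for the 2 most abundant members, KLF5 and KLF6, and for KLF2 and KLF4, whose levels differed most between the tables. The sequences come from RefSeq (GRCh38.p14), which gave promoter windows for 8 of the 10 members, and no window for KLF3 or KLF10 was in that table. Capitals mark GC boxes, the letters GGGCGG on either strand (CCGCCC when read on the printed strand). All are printed 5′ to 3′ on the strand of the gene and end at the annotated start, except that of KLF6, which stops where an annotated transcript of the gene begins. Other annotated transcripts begin further upstream at 2 of the starts, which lie 713 bases inside the gene span for KLF4 and 4029 bases inside it for the downstream start of KLF5.
KLF5, upstream start, chr13:73054726-73054975, + strand: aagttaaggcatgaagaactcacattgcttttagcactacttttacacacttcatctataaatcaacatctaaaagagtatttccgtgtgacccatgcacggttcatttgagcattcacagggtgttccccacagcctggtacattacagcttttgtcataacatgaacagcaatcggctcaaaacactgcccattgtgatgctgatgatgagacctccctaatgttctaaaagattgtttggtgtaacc
KLF5, downstream start, chr13:73058755-73059004, + strand: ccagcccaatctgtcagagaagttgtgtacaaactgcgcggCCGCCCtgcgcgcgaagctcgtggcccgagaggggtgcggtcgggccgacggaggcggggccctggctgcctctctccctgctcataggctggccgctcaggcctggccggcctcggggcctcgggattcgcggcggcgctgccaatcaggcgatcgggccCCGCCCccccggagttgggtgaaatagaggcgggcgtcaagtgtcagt
KLF6, chr10:3785282-3785459, - strand: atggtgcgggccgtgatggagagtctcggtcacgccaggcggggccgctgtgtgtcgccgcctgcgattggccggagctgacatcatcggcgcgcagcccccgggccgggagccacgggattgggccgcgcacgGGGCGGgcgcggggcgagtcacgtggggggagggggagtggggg
KLF2, chr19:16324576-16324825, + strand: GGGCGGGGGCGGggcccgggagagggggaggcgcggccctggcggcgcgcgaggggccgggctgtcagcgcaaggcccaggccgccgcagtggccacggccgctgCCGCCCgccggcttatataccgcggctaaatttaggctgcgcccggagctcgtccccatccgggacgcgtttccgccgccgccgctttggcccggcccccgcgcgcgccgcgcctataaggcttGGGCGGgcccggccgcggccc
KLF4, chr9:107489770-107490019, - strand: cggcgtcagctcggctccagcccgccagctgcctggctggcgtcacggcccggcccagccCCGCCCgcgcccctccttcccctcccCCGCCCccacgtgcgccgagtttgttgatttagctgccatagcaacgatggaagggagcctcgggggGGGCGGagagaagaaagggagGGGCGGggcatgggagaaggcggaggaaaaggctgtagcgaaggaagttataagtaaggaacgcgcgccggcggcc

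The starts of KLF5 differ: the upstream window has 40.8% G and C and no GC box, and the downstream window has 70.8% and 2 GC boxes. The windows of KLF2 and KLF4 hold 4 GC boxes each. Over the 250 bases upstream of all 13 start sites of the 8 members, 8 windows held a GC box, against 42.6% of 35116 windows of the whole table. The letters CACCC or their complement were in 6 of the 13 and in 54.7% of all windows, CCAAT in 6 and 32.0%, and TATAAA in 1 and 10.7%. The motif bound by MEF2, the factor through which ERK5 signalling reaches KLF2, was found in the KLF2 window, starting at base 131, in no other window of a member, and in 1.75% of all. GC content spanned 32.4% for KLF9 to 80.0% for KLF2, against a median of 58.0%. These matches describe letters only.

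In the GRCh37 build that the deposited values rest on (hg19), the genes differ in size. KLF2 (ENSG00000127528, chr19:16435637-16439496) spans 3860 bp, KLF4 (ENSG00000136826, chr9:110247133-110252763) 5631 bp and KLF6 (ENSG00000067082, chr10:3818188-3827473) 9286 bp. KLF5 (ENSG00000102554, chr13:73629114-73651679) spans 22566 bp. KLF7 and KLF13 reach 99720 bp and 108831 bp, longer than 80.5% and 82.4% of the 12757 active genes with a GENCODE span, whose median is 31480 bp. KLF3, KLF4, KLF7 and KLF11 are overlapped on the opposite strand by annotated long non-coding RNA genes that have no row in the tables. The library kit keeps the strand of the RNA, but whether the FPKM were computed by strand is not given in the sources used here.

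The markers of the labelled cells were in place in part. In DMSO, PAX8 and SOX17, transcription factors of the Müllerian lineage, had mean FPKM of 136 and 143 in Ku and 124 and 117 in Cov cells, and keratin KRT8 had 2432 and 1133. WT1 was at 56.8 in Ku and 0.653 in Cov cells, and MUC16 at 0.166 and 5.71. Of 8 markers of leukocytes, endothelium and fibroblasts, 5 were below 1 FPKM in every library, while CDH5, COL1A1 and COL3A1 were above 1 in at least 1 library. Pearson's r between the 2 replicates of a group was 0.968 to 0.983 across active genes on the log2 scale. Read counts are not in the tables, so the depth of the libraries is unknown. In each library 5278 rows (Ku) or 4901 rows (Cov) share 1 low value, between 0.0783 and 0.119 FPKM, and levels near it carry no measurable signal.

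KLF5 dominated the family in untreated cells of both lines. Its DMSO libraries held 61.5 and 57.3 FPKM in Ku cells and 93.2 and 100.3 in Cov cells, above 85.2% and 88.7% of active genes. KLF6, a factor induced by injury and growth signals, followed with 19.0 and 16.4 FPKM in Ku and 46.1 and 51.1 in Cov cells. The rest of the order differed between the lines. In Ku cells KLF13 (mean 13.0 ± 1.94 FPKM, SD, n = 2), KLF3 (12.3 ± 0.859) and KLF10 (11.6 ± 1.07) came next with overlapping replicates, followed by KLF11 (5.50 ± 0.546), KLF9 (3.57 ± 0.379) and KLF7 (2.30 ± 0.269). In Cov cells the third place belonged to KLF10 (33.9 ± 1.93), ahead of KLF13 (19.7 ± 1.55) and KLF11 (19.6 ± 1.02), which overlapped. KLF4 (18.4 ± 0.356) came next, its higher library just above the lower one of KLF13. KLF3 (16.5 ± 0.939), KLF2 (6.06 ± 0.297), KLF7 (3.82 ± 0.442) and KLF9 (2.79 ± 0.431) closed the list without overlap.

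KLF2 and KLF4, which both act in the endothelial response to flow, differed most between the tables. KLF4 had 18.2 and 18.7 FPKM in the Cov DMSO libraries and 0.828 and 0.659 in the Ku ones. KLF2 had 5.85 and 6.27 FPKM against 0.285 and 0.270. Neither reached 1 FPKM in any Ku library, and both counted as active through Cov cells. The tables were normalized separately, so these differences between lines were not tested.

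**Figure D1:**
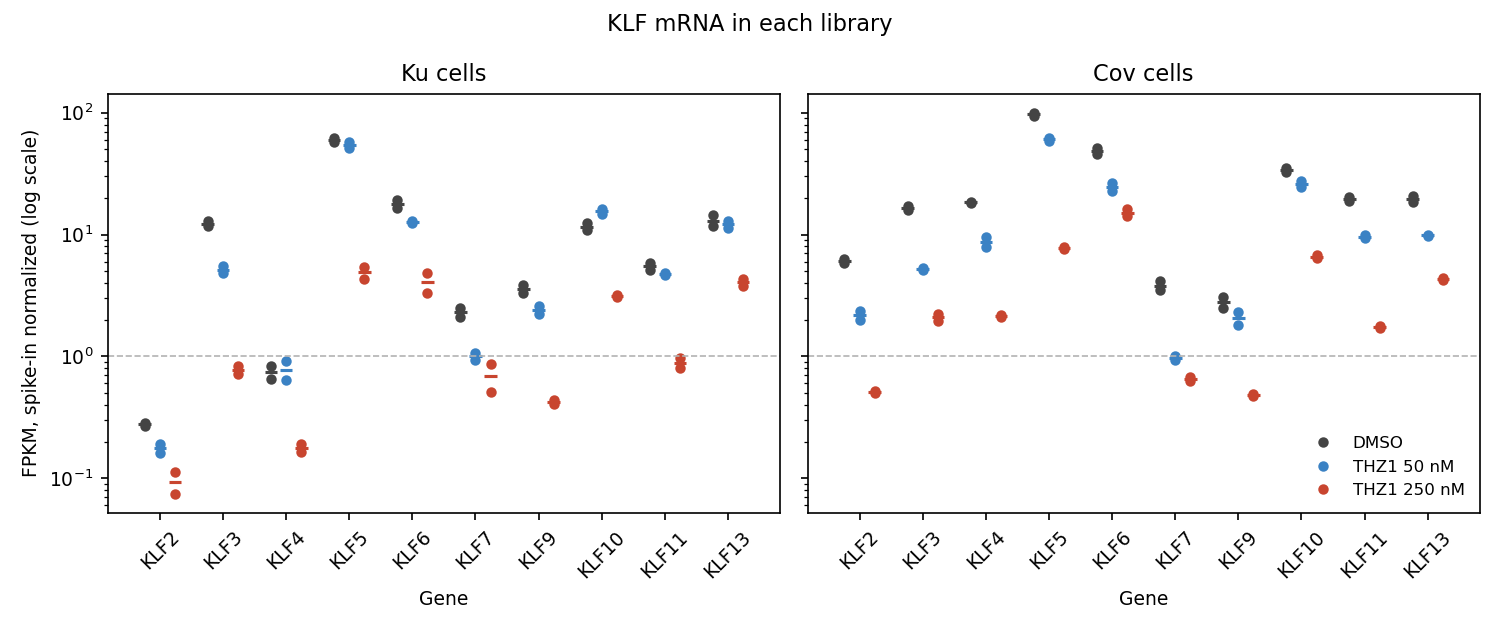
Normalized FPKM of the 10 KLF genes on a log axis, with 1 point per library and a short bar at the mean of the 2 libraries of a group; the dashed line marks 1 FPKM. The 250 nM points of KLF5 sit near 4.9 FPKM in Ku and 7.8 in Cov cells, far below its DMSO points of 57.3 to 61.5 and 93.2 to 100.3. In Ku cells the DMSO and 50 nM points of KLF13 and KLF4 overlap. The 50 nM points of KLF10 lie above its DMSO points in Ku and below them in Cov cells.

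A gene was called lower or higher when limma, fitted to the 6 libraries of a line on log2(FPKM + 1), gave a Benjamini-Hochberg adjusted p under 0.001 over the 14251 active genes and a log2 fold change beyond 0.5. Log2 fold changes are on that scale, which compresses changes of low genes such as KLF2 and KLF4 in Ku cells. An exact permutation test of 2 libraries per group has a smallest two-sided p of 0.33, so the calls rest on the spread that limma pools across genes. Both doses were compared with the same DMSO libraries. Values are per cell, since the spike-ins were added to RNA normalized by cell count. In these bulk libraries fewer cells that carry an mRNA and less mRNA in each cell cannot be told apart.

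At 50 nM in Ku cells no KLF gene passed the test in either direction, while 11.3% of active genes were called lower and 0.0842% higher. That background is not stable: it fell to between 0.0421% and 0.919% lower when any 1 library was left out, and to 0.737% on equal-median scaling. At an unadjusted limma p under 0.05, 5 members were lower and 1 was higher, against 61% and 1.46% of active genes. The median log2 fold change of the 10 genes was -0.15, against -0.40 for all active genes, and turned to 0.24 on equal-median scaling (libraries set to the same median FPKM) and 0.15 on median-of-ratios scaling, against 0.10 and 0.02 for all active genes. Of the 10 members, 7 had both treated libraries below both DMSO libraries, a pattern seen in 75.8% of active genes, and 1 had both above, a pattern seen in 3.45%. KLF13 and KLF4 overlapped.

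The members spread widely around that median. KLF3, the CtBP-dependent repressor, went from 12.9 and 11.7 FPKM in DMSO to 5.51 and 4.82 at 50 nM (log2 fold change -1.11, SE 0.133, adjusted p = 0.0013), just outside the threshold. KLF7, a factor of neurons and adipose tissue, went from 2.49 and 2.11 to 1.07 and 0.941 FPKM (-0.72, SE 0.129, adjusted p = 0.0051). KLF5 stayed near its DMSO level, with 57.1 and 50.9 FPKM against 61.5 and 57.3 (-0.14, SE 0.12, adjusted p = 0.367). KLF11 and KLF13 had log2 fold changes of -0.17 and -0.08, and KLF6 and KLF9 of -0.44 and -0.42.

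KLF10 stood on the other side of 0. KLF10, an early gene of the TGF-beta response, had 16.1 and 14.9 FPKM at 50 nM and 12.4 and 10.8 in DMSO. Both treated Ku libraries lay above both DMSO libraries. The log2 fold change was 0.39 (SE 0.117, adjusted p = 0.0316), not past the threshold, and 98.5% of active genes had a lower one. On median-of-ratios scaling KLF10 was called higher (0.89, adjusted p = 0.0008), while on equal-median scaling it was not (1.01, adjusted p = 0.0011). Among the 500 active genes nearest to KLF10 in DMSO expression, 498 had a lower log2 fold change.

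In Cov cells 8 of the 10 members were called lower at 50 nM on the spike-in scale and 0 after scaling libraries to the same median FPKM. On the spike-in scale 0 were called higher, and 70.5% and 0.0772% of active genes were called lower and higher, so the share of members called was close to that of all genes. All 10 had both 50 nM libraries below both DMSO libraries, as 95.7% of active genes did. The median log2 fold change was -0.95, and that of all active genes was -0.85. Equal-median scaling moved the median of all active genes to 0.12, and 7 of the 10 members then had positive log2 fold changes. Without DMSO replicate 2 only KLF2, KLF3 and KLF7 kept their calls on the spike-in scale. Calls among all active genes became fewer as well. The median of the members was then -0.89, against -0.79 for all active genes.

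KLF3 and KLF7 had the lowest values. KLF3 fell from 15.8 and 17.1 FPKM to 5.08 and 5.28 (log2 fold change -1.498, SE 0.101, adjusted p = 2.5e-05), and KLF7 from 3.51 and 4.13 to 1.01 and 0.927 (-1.29, SE 0.0942, adjusted p = 2.9e-05). With a pseudocount of 0.1 their order turned, to -1.65 and -1.87, and the shares of the DMSO means left were 31.4% and 25.4%. These 2 genes also had the lowest values in Ku cells at this dose, and they are the members whose log2 fold changes remained below 0 at 50 nM in both lines under both other scalings, to equal medians and by the median of ratios. KLF2 fell from 5.85 and 6.27 to 2.01 and 2.36 FPKM (-1.15). KLF4, KLF6, KLF11 and KLF13 fell by 0.93 to 1.00 on the log2 scale. KLF5 fell by 0.67, from 93.2 and 100.3 FPKM to 58.8 and 61.8, a call that was lost without either DMSO library or 50 nM replicate 1. On equal-median scaling all but KLF2 among these 6 turned positive, KLF5 to 0.53.

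KLF9 and KLF10 were the members not called in Cov cells at 50 nM. KLF9, a gene induced by glucocorticoid and thyroid hormone, had 2.48 and 3.09 FPKM in DMSO and 1.81 and 2.30 at 50 nM (log2 fold change -0.31, adjusted p = 0.0378). KLF10 had 32.5 and 35.3 in DMSO and 24.6 and 27.5 at 50 nM (-0.37, SE 0.0964, adjusted p = 0.0079). More of the active genes had a lower log2 fold change than these 2, 91.1% for KLF9 and 89.2% for KLF10.

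**Figure D2:**
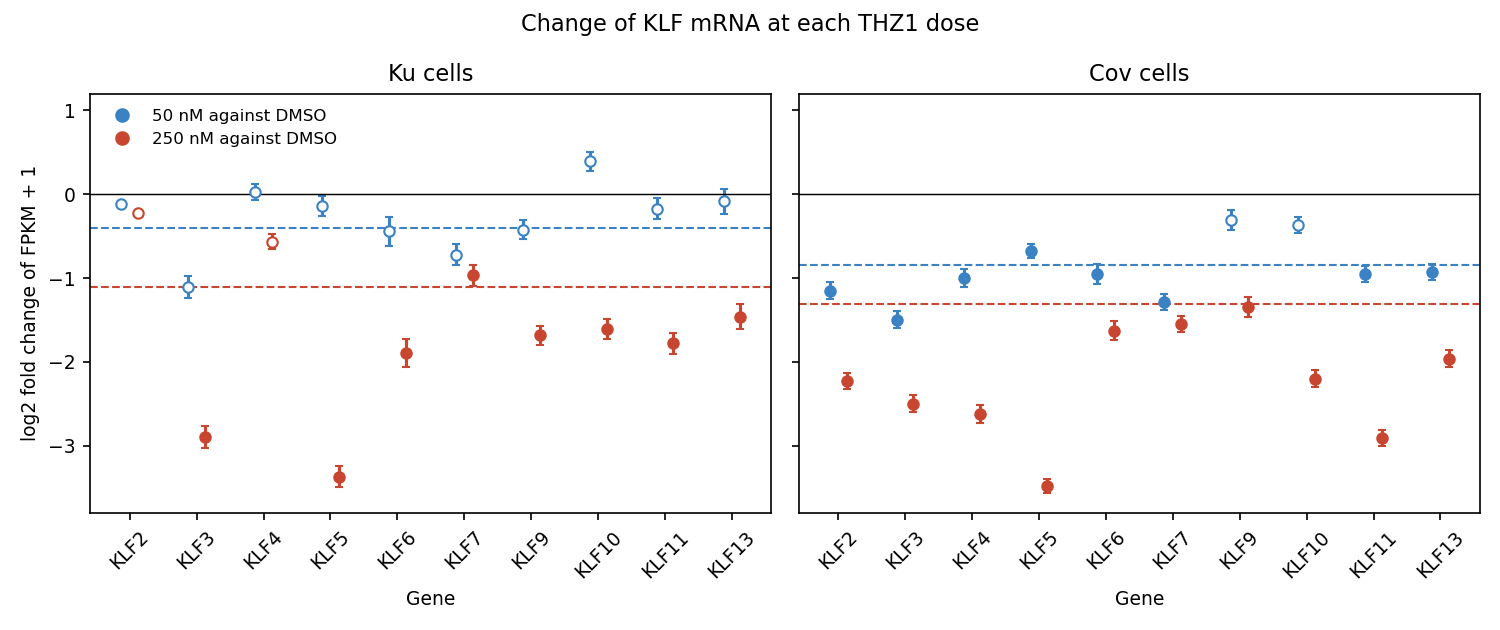
Log2 fold change of FPKM + 1 for each KLF gene at 50 nM (blue) and 250 nM (red) against the same DMSO libraries, with bars of 1 standard error from limma, filled points for called genes and open points for the others; dashed lines mark the medians of all active genes. KLF5 has the lowest red point in both lines (-3.37 and -3.48), and the blue point of KLF10 in Ku cells is at 0.39. Points are on the spike-in scale; on equal-median scaling the 250 nM values of KLF2, KLF7, KLF10 and KLF13 in Ku and of KLF6 in Cov cells are above 0.

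At 250 nM every member lay below DMSO in both lines on the spike-in scale, while 4 members in Ku and 1 in Cov cells had positive log2 fold changes on equal-median scaling, which put the medians of all active genes at 0.29 and 0.31. In Ku cells 8 members were called lower and 0 higher, against 68.6% and 0.0491% of active genes. All 10 passed as lower in Cov cells and 0 as higher, where 84% and 0.105% of active genes did. All 10 members had both 250 nM libraries below both DMSO libraries in each line, which holds for 95.9% of active genes in Ku and 95.6% in Cov cells. On equal-median scaling 3 and 5 members were called lower, against 11.6% and 11.3% of active genes, and on median-of-ratios scaling 4 and 6, against 19.0% and 18.9%. On the spike-in scale the counts are near their background, and the median log2 fold change of the members was -1.65 in Ku and -2.21 in Cov cells, against -1.11 and -1.31 for all active genes. In Ku cells 7 of 10 members lay below the median of all genes, and in Cov cells 10 of 10.

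On the log2(FPKM + 1) scale KLF5 had the lowest value of the members in both lines, while with a pseudocount of 0.1 KLF3 was lower in Ku cells (-3.81 against -3.59 for KLF5). The FPKM of KLF5 at 250 nM were 4.30 and 5.46 in Ku and 7.91 and 7.63 in Cov cells, 8.22% and 8.04% of the DMSO means. The log2 fold changes were -3.37 (SE 0.12, adjusted p = 7.3e-06) and -3.48 (SE 0.0828, adjusted p = 8.2e-07). Of the active genes, 1.99% in Ku and 0.989% in Cov cells had a lower value. Among the 500 active genes nearest to KLF5 in DMSO expression, 13 and 12 did. KLF5 was called lower at 250 nM in both lines under every alternative tried, with -1.54 and -1.501 on equal-median scaling.

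The other activators fell less. KLF6 went from 19.0 and 16.4 to 3.31 and 4.86 FPKM in Ku cells (log2 fold change -1.89, SE 0.171) and from 46.1 and 51.1 to 16.1 and 14.1 in Cov cells (-1.63, SE 0.116). At 250 nM KLF6 was the most abundant member in Cov cells, with both libraries above both of KLF5. On equal-median scaling the value of KLF6 in Cov cells turned to 0.37 (adjusted p = 0.0049), and in Ku cells it was -0.14. KLF7 fell by 0.97 in Ku and by 1.54 in Cov cells. Its Ku call was lost when any library but 250 nM replicate 2 was left out (highest adjusted p = 0.0034), and with 0.13 in Ku cells on equal-median scaling its sign changed.

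KLF2 and KLF4 could be followed in Cov cells. KLF2 fell from 5.85 and 6.27 FPKM to 0.5002 and 0.523 (log2 fold change -2.22, SE 0.0974), and KLF4 from 18.2 and 18.7 to 2.10 and 2.20 (-2.62, SE 0.11), 8.44% and 11.7% of their DMSO means. Both remained called on equal-median scaling, at -0.93 and -0.87. In Ku cells they were the members not called at 250 nM with all libraries. KLF4 passed there in 2 of the 6 fits that left out 1 library. KLF4 had 0.165 and 0.190 FPKM against 0.828 and 0.659 in DMSO (-0.56, adjusted p = 0.0014), and KLF2 had 0.0745 and 0.113 against 0.285 and 0.270 (-0.22, adjusted p = 0.0021). With a pseudocount of 0.1 in place of 1 KLF4 was called, at -1.60. The 250 nM level of KLF2 in Ku cells is about the low value that rows without signal share. That value itself falls with the dose in Ku cells, from 0.118 and 0.119 FPKM in DMSO to 0.107 and 0.103 at 50 nM and 0.0783 and 0.0822 at 250 nM.

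Among the repressors KLF3 fell most in Ku cells and KLF11 in Cov cells. KLF3 went from 12.9 and 11.7 to 0.723 and 0.838 FPKM in Ku (log2 fold change -2.90, SE 0.133) and from 15.8 and 17.1 to 2.22 and 1.97 in Cov cells (-2.50, SE 0.101). Relative to DMSO, 6.37% of KLF3 mRNA was left in Ku cells, the smallest share of any member in either line. KLF11, the other TGF-beta early gene, went from 5.88 and 5.11 to 0.807 and 0.974 FPKM in Ku (-1.78) and from 18.9 and 20.3 to 1.71 and 1.79 in Cov cells (-2.90). Both genes had negative values on equal-median scaling in each line, -1.51 and -0.76 for KLF3 and -0.45 and -1.19 for KLF11.

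KLF9, KLF10 and KLF13 had log2 fold changes of -1.68, -1.61 and -1.46 in Ku cells, all called. The call of KLF13 was lost without either 250 nM library (adjusted p of 0.00151 and 0.00104). KLF10, above DMSO at 50 nM, had 3.05 and 3.20 FPKM at 250 nM (log2 fold change -1.61, SE 0.117). In Cov cells KLF10 fell to 6.42 and 6.78 (-2.20), KLF13 to 4.22 and 4.42 (-1.96) and KLF9 to 0.491 and 0.475 (-1.35). The value of KLF9 was close to the median of all active genes on this scale, but with a pseudocount of 0.1 it was -2.30, and 17.3% of the DMSO mean was left, against 31.0% for KLF6. On equal-median scaling KLF10 and KLF13 in Ku cells moved to 0.08 and 0.28.

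The doses were also compared directly. From 50 nM to 250 nM, 7 members in Ku and 8 in Cov cells were called lower, where the background was 36% and 24.4% of active genes. None was called higher, as for all but 0.0421% and 0.0842% of active genes. The 8 calls in Cov cells became 4 without either 250 nM library, against 11.9% and 10.7% of active genes. The 7 calls in Ku cells became 1 to 3 when either library of the 2 doses was left out, against 5.55% to 11.2%. The median log2 fold change was -1.41 in Ku and -1.06 in Cov cells, against -0.62 and -0.41 for all active genes. On equal-median scaling the medians were -0.53 and -0.74, against 0.24 and 0.21.

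Most of the loss of KLF5 on the log2 scale came with this second step. KLF5 fell from 57.1 and 50.9 to 4.30 and 5.46 FPKM in Ku (log2 fold change -3.23, SE 0.12, adjusted p = 3.9e-05) and from 58.8 and 61.8 to 7.91 and 7.63 in Cov cells (-2.80, SE 0.0828, adjusted p = 3.4e-05). Of the active genes 0.449% and 0.203% had a lower value. KLF10 fell by 1.999 in Ku and by 1.83 in Cov cells, and KLF11 fell by 1.61 and by 1.95. In Ku cells the KLF11 call was lost without any 1 of the 4 libraries compared, and the KLF10 call without replicate 1 of either dose. KLF5, KLF10 and KLF11 had called falls at this step in both lines on equal-median scaling as well.

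KLF7 changed less than KLF5, KLF10 and KLF11 from 50 nM to 250 nM. Having gone from 2.49 and 2.11 to 1.07 and 0.941 FPKM at 50 nM in Ku cells, KLF7 had 0.516 and 0.872 at 250 nM (log2 fold change -0.25, adjusted p = 0.128). In Cov cells KLF7 went from 1.01 and 0.927 to 0.674 and 0.623 (-0.26, adjusted p = 0.0491). Neither step was called, and on equal-median scaling both values turned positive, at 0.38 and 0.14. These levels are low, and with a pseudocount of 0.1 the value of KLF7 was -0.51 in both lines. The median of all active genes was then -0.79 in Ku and -0.51 in Cov cells. KLF6 in Cov cells, with 22.7 and 26.7 FPKM at 50 nM and 16.1 and 14.1 at 250 nM, was not called either (-0.67, adjusted p = 0.0022).

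The order DMSO above 50 nM above 250 nM, with no overlap between the libraries of different groups, held for 7 of 10 members in Ku cells, against 66.7% of active genes. The exceptions were KLF4, KLF10 and KLF13. The 7 include KLF2, which is near the low value of rows without signal, and such rows follow the same order in Ku cells. In Cov cells the order held for 10 of 10, against 73.8%.

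**Figure D3:**
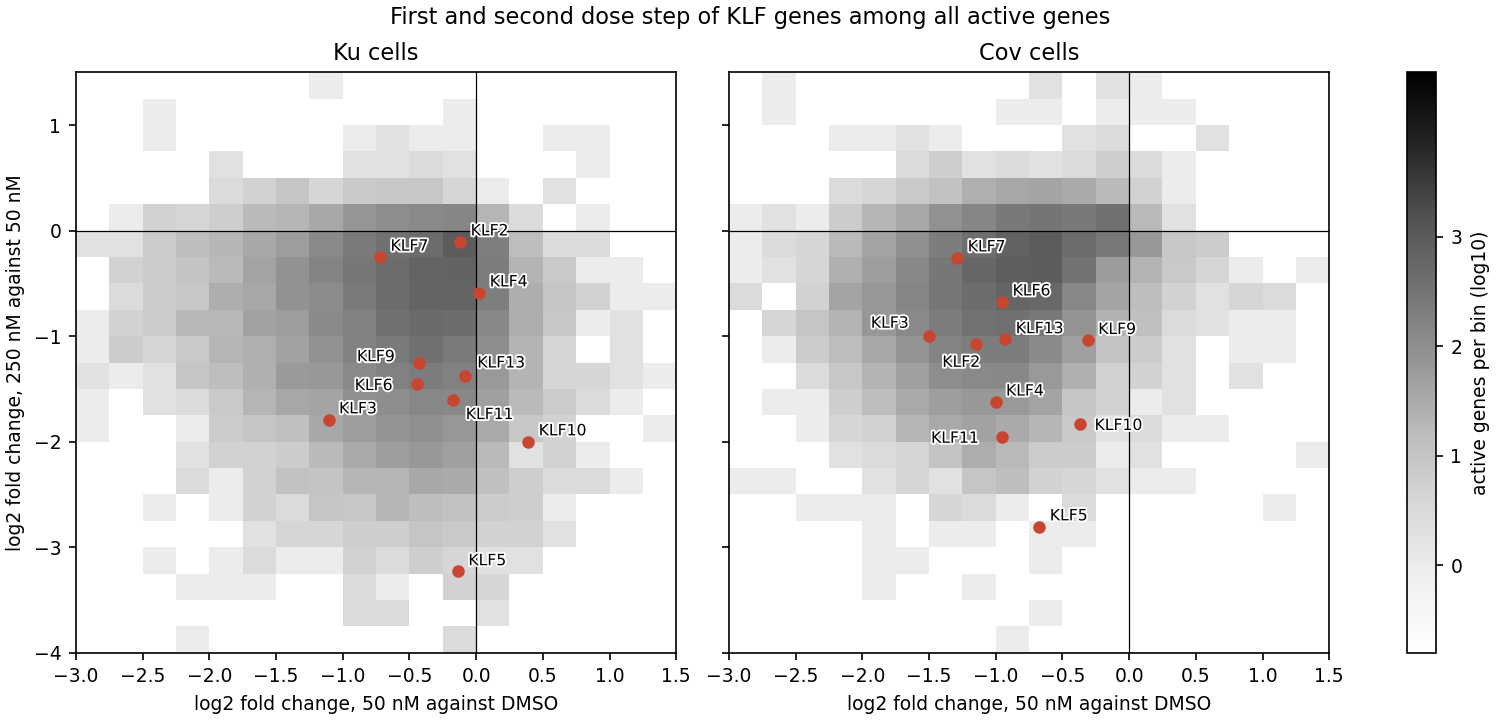
Log2 fold change of FPKM + 1 from DMSO to 50 nM (x axis) and from 50 nM to 250 nM (y axis) for the 10 KLF genes (red) over bins of 0.25 by 0.25 that are shaded by the number of active genes on a log10 scale; the axes share the 50 nM libraries. KLF5 sits at -3.23 on the y axis in Ku and -2.80 in Cov cells, near the lower edge of the bulk of active genes. KLF7 sits at -0.25 and -0.26 on the y axis (-0.51 in both lines with a pseudocount of 0.1). KLF10 in Ku cells lies right of 0 on the x axis.

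The make-up of the family is the same on equal-median and median-of-ratios scaling, since each multiplies all members of a library by the same factor. Whether the spike-in normalization of the deposited values also used a single factor per library is not given in the sources used here. The 10 genes summed to 126.4 ± 9.99 FPKM (SD, n = 2) in Ku DMSO libraries, 108.7 ± 7.74 at 50 nM and 19.2 ± 2.91 at 250 nM, which is 86.0% and 15.2% of DMSO. In Cov cells the sums were 266.1 ± 15.5, 149.7 ± 9.22 and 41.4 ± 1.30, or 56.2% and 15.6%. The FPKM of all genes summed to 81.2% and 51.6% of DMSO in Ku and 71.2% and 48.2% in Cov cells. Relative to that sum, the summed KLF mRNA was smaller at 250 nM in both lines. The median FPKM of active genes fell further than the sum of all genes. In Ku cells that median went from 12.8 and 10.9 in DMSO to 2.84 and 3.13 at 250 nM. In Cov cells it went from 13.4 and 14.4 to 3.32 and 3.27.

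KLF5 supplied 46.1% and 48.0% of the sum in the Ku DMSO libraries and 50.0% and 49.3% at 50 nM, but 25.1% and 25.7% at 250 nM. In Cov cells its share was 36.5% and 36.2% in DMSO, 41.0% and 39.6% at 50 nM and 18.7% and 18.8% at 250 nM. The KLF5 share was thus higher at 50 nM and lower at 250 nM than in DMSO, without overlap, in both lines. KLF6 held more of the sum in Cov cells, from a mean of 18.3% in DMSO to 36.4% at 250 nM, and KLF6 and KLF13 did so in Ku cells, from 14.0% and 10.3% to 21.1% and 21.3%. KLF13 went from 7.40% to 10.4% in Cov cells, without overlap. KLF10 went from 9.18% to 14.3% at 50 nM in Ku cells and from 12.7% to 17.4% in Cov cells, and its 250 nM means were 16.4% and 15.9%. KLF3 went the other way at 50 nM, from 9.70% to 4.75% in Ku and from 6.19% to 3.47% in Cov cells.

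**Figure D4:**
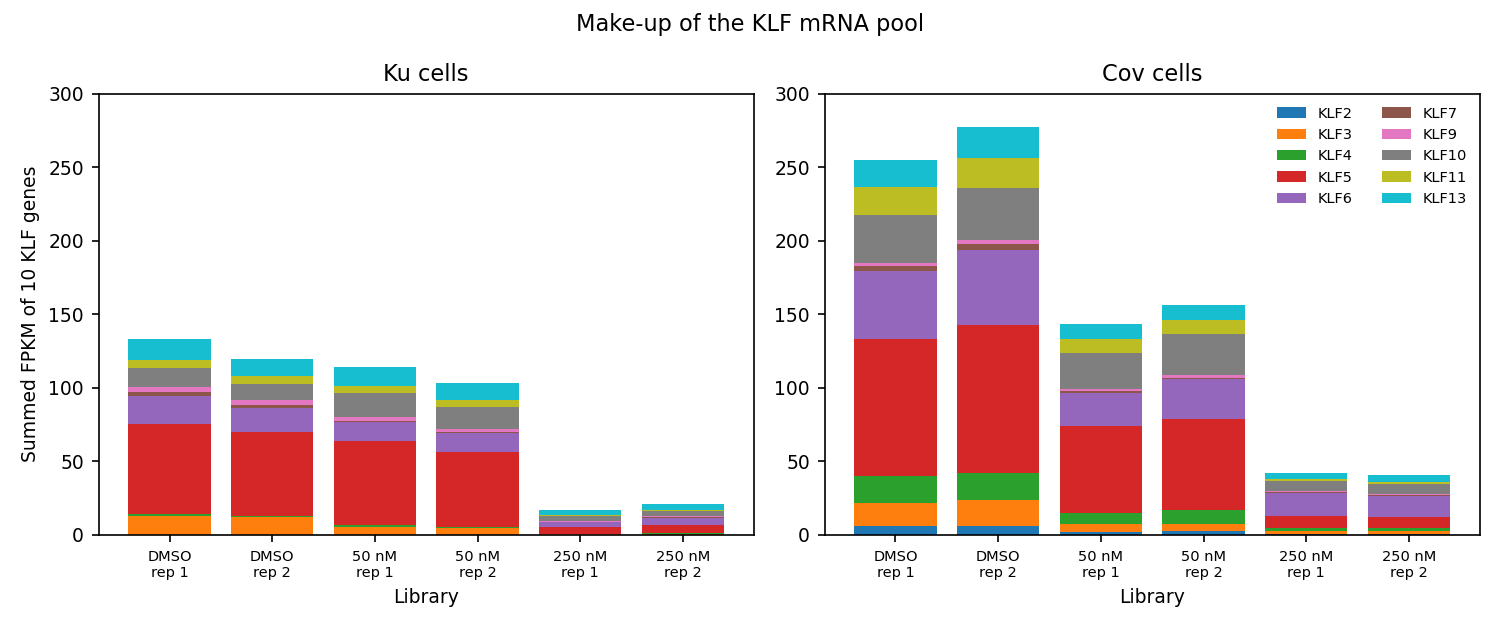
Summed FPKM of the 10 KLF genes in each library, stacked by gene, with the bars of each line in the order DMSO, 50 nM and 250 nM. The sums drop from means of 126.4 to 19.2 in Ku and 266.1 to 41.4 in Cov cells between DMSO and 250 nM, and the KLF5 block (red) shrinks from about 47.0% to 25.4% of the bar in Ku and from 36.4% to 18.8% in Cov cells.

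The KLF5 profile over the 6 libraries of a line was compared with every active gene by Euclidean distance after centring log2(FPKM + 1). In Ku cells PHF13, E2F3 and ADNP were nearest, at distances of 0.158, 0.179 and 0.229, where the median of all genes was 2.89. PHF13 had mean FPKM of 21.4, 20.1 and 1.19 in DMSO, 50 nM and 250 nM. In Cov cells FAM83D, BAMBI and ADNP were nearest, at 0.27, 0.28 and 0.351, with a median of 2.68. BAMBI, an inhibitor of TGF-beta signalling, had 22.5, 12.7 and 1.25 FPKM. ADNP was in both lists, with log2 fold changes at 250 nM of -3.22 in Ku and -3.62 in Cov cells.

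The other KLF and SP genes are close relatives in the DNA-binding domain. Of the 16 relatives outside the 10 members, 7 were active. At 50 nM 0 were called lower in Ku and 5 in Cov cells, against 11.3% and 70.5% of active genes, and at 250 nM 7 and 6, against 68.6% and 84%. Their median log2 fold changes at 250 nM were -2.22 in Ku and -1.60 in Cov cells, and -0.75 and -0.27 on equal-median scaling. On equal-median scaling 4 and 2 of the 7 were called lower at 250 nM, against 11.6% and 11.3% of active genes. SP1, the widely expressed founder of the SP branch, had the lowest log2 fold change, from 19.0 and 15.8 to 1.57 and 2.04 FPKM in Ku (log2 fold change -2.71) and from 29.6 and 33.0 to 3.38 and 2.86 in Cov cells (-2.97), and was called lower on equal-median scaling too. KLF15 had the highest log2 fold change in both lines, but from low levels. In Ku cells KLF15 fell by 1.47, from 2.37 and 1.59 FPKM to 0.0670 and 0.0702, about the value that rows without signal share, and 3.47% of its DMSO mean was left, against 10.4% for SP1. In Cov cells KLF15 had 0.380 and 0.339 FPKM in DMSO and was not called.

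Of the 10 cofactor genes, 8 were called lower at 250 nM in Ku and 10 in Cov cells, with 2 and 7 at 50 nM and 0 higher at either dose. The same shares of all active genes were 68.6% and 84% at 250 nM and 11.3% and 70.5% at 50 nM. Their medians at 250 nM were -1.69 and -1.59, and 0.13 and 0.31 on equal-median scaling. That scaling gave this list 3 lower calls in each line, with 4 calls of a rise in Ku and 3 in Cov cells. Such rises were called for 26.9% (Ku) and 26.4% (Cov) of active genes, and falls for 11.6% and 11.3%. SIN3A, the scaffold used by KLF9, KLF10, KLF11 and KLF13, fell from 32.2 and 35.5 to 2.91 and 2.82 FPKM in Cov cells (log2 fold change -3.17), the lowest value of the list there, and had -2.61 in Ku cells. EP300, the acetyltransferase that KLF activators recruit, had the lowest value in Ku cells, from 17.1 and 12.7 to 1.196 and 1.499 FPKM (-2.75). The histone deacetylase HDAC1 kept 229.8 and 211.2 FPKM in Ku cells against 265.6 and 238.1 in DMSO (-0.19, adjusted p = 0.0588), and fell by 0.73 in Cov cells. HDAC1 was among the genes called higher on equal-median scaling, at 1.78 in Ku and 1.31 in Cov cells. SIN3A and EP300 were among those called lower in both lines.

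The 12 upstream regulators are SRF and genes of the ERK5-MEF2, TGF-beta, FOXO and glucocorticoid routes to KLF genes. On the spike-in scale all 12 were called lower at 250 nM in both lines, where 68.6% and 84% of active genes were. On equal-median scaling 0 in Ku and 3 in Cov cells were called lower, against 11.6% and 11.3% of active genes. On median-of-ratios scaling 4 and 8 were, against 19.0% and 18.9%. At 50 nM on the spike-in scale the counts were 2 in Ku and 11 in Cov cells, beside 11.3% and 70.5%. Their medians at 250 nM were -1.68 and -2.07. FOXO1 had the lowest value in Ku cells, -2.35. The glucocorticoid receptor NR3C1, an inducer of KLF9, had the lowest in Cov cells, -2.89, going from 39.8 and 44.9 to 5.12 and 4.60 FPKM. MEF2C in Ku cells and the ERK5 kinase MAP2K5 in Cov cells had the highest log2 fold changes, -0.90 and -1.01. MEF2C was low in Ku cells, from 1.197 and 1.14 to 0.143 and 0.189 FPKM, and 14.2% of its DMSO mean was left. Of the 8 genes that control the stability of KLF proteins, 7 in Ku and 8 in Cov cells were called lower at 250 nM, and 0 and 6 at 50 nM, beside the same shares of active genes. On equal-median scaling 0 and 2 were called lower at 250 nM, against 11.6% and 11.3% of active genes. BAP1 in Cov cells was called higher (0.95), as were 26.4% of active genes. The values ran from -2.26 for VHL to -0.93 for SMURF1 (adjusted p = 0.0031, not called) in Ku, and from -2.58 for SIAH1 to -1.09 for BAP1 in Cov cells.

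Target genes of KLF factors known from other tissues had medians near that of all genes. Of 17 listed, 14 were active, and 11 in Ku and 13 in Cov cells were called lower at 250 nM, against 68.6% and 84% of active genes, with medians of -1.12 and -1.40 beside -1.65 and -2.21 for the KLF genes and -1.11 and -1.31 for all active genes. At 50 nM 2 and 10 were called lower, against 11.3% and 70.5%, and 0 were higher at either dose. On equal-median scaling the medians at 250 nM were 0.26 and 0.34, with 0 and 2 called lower and 2 and 3 higher, where 11.6% and 11.3% of active genes were lower and 26.9% and 26.4% higher. PDGFA, a growth factor gene driven by KLF5 in vessels, had the lowest value in Ku cells, from 6.40 and 5.44 to 0.761 and 0.546 FPKM (log2 fold change -2.06). S1PR1, a receptor gene driven by KLF2 in lymphocytes, had the lowest in Cov cells, from 5.74 and 7.04 to 0.262 and 0.380 (-2.48). CCL5, a KLF13 target in T cells, stayed below 1 FPKM in Ku cells (0.01, adjusted p = 0.921), and NOS3, an endothelial KLF2 target, did so in Cov cells (-0.31, adjusted p = 0.0016). Neither was called.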

How the data were processed

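Cells of both lines were treated for 6 hr, and stranded poly(A) libraries were sequenced as single 75 bp reads. The authors aligned reads with HISAT to hg19 and deposited 1 FPKM table per line, computed with Cufflinks and Cuffnorm and normalized to ERCC spike-ins that were added to RNA from counted cells; versions are not given in the sources used here. The tables hold no read counts, so depth is unknown and no counting interval can be given.

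From the FPKM, log2(FPKM + 1) was fitted in R 4.3.3 with limma 3.58.1 (lmFit, eBayes with trend) to the 6 libraries of each line separately, because the tables were normalized separately. A group has 2 libraries from cells treated in duplicate. Whether the duplicates were set up on separate days is not given in the sources used here, so p-values measure the spread between these libraries. Genes with over 1 FPKM in at least 1 of 12 libraries (14251) were tested, two-sided, with Benjamini-Hochberg adjustment over all of them. A gene was called where the adjusted p was below 0.001 and its log2 fold change exceeded 0.5 in size. The script was tested on simulated data. The 10 KLF genes were named throughout, with the 3 active genes nearest in profile to KLF5 and, from each other list, the members with the highest and lowest log2 fold change at 250 nM in a line. The other scalings of the lists, and the genes named with them, were added after seeing the data. The members and lists were chosen with earlier results of these data known. Alternatives were a pseudocount of 0.1, no minimum FPKM, 2 other scalings (equal medians, median of ratios), a replicate block, an adjusted p under 0.05 and leaving out each library. Promoters were read from RefSeq (GRCh38.p14) and gene spans from GENCODE on GRCh37. Plots used Python 3.11.15 and matplotlib 3.10.9.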

Additional observations from a re-analysis of the deposited data

Results flagged for a closer look

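KLF10 moved in opposite directions at 50 nM in the lines. Both Ku libraries at 50 nM lay above both DMSO libraries (log2 fold change 0.39), and both Cov libraries at 50 nM lay below both DMSO libraries (-0.37). Neither passed the threshold of limma, with adjusted p of 0.0316 and 0.0079, and the difference between the lines was not tested, since the tables were normalized separately. The same opposed order was found in 378 of the 14251 active genes, or 2.65%. On equal-median scaling both values were positive, at 1.01 and 0.81, and on median-of-ratios scaling at 0.89 and 0.62.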

How the results depend on the processing

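On equal-median scaling the members called lower numbered 3 (Ku, 250 nM), 0 (Cov, 50 nM), 5 (Cov, 250 nM) and 5 (Cov, 250 against 50 nM), where 11.6%, 0.147%, 11.3% and 4.95% of active genes were. On median-of-ratios scaling they numbered 4, 0, 6 and 5, against 19.0%, 0.772%, 18.9% and 7.92%, with 1 called higher in Ku cells at 50 nM, KLF10, against 0.519%. Equal-median scaling turned these log2 fold changes positive: in Ku cells at 50 nM KLF2 0.0074, KLF5 0.55, KLF6 0.22, KLF9 0.091, KLF11 0.39 and KLF13 0.55 (median of members 0.24); in Cov cells at 50 nM KLF4 0.13, KLF5 0.53, KLF6 0.24, KLF9 0.49, KLF10 0.81, KLF11 0.18 and KLF13 0.21 (median 0.19); at 250 nM KLF2 0.059, KLF7 0.13, KLF10 0.081 and KLF13 0.28 in Ku and KLF6 0.37 in Cov cells; and from 50 nM to 250 nM KLF2 0.051 and KLF7 0.38 in Ku and KLF6 0.14 and KLF7 0.14 in Cov cells. Median-of-ratios scaling did so for KLF5 0.41, KLF6 0.081, KLF11 0.28 and KLF13 0.42 in Ku cells at 50 nM (median 0.15), for KLF5 0.34, KLF6 0.049, KLF9 0.38, KLF10 0.62, KLF11 0.0055 and KLF13 0.032 in Cov cells at 50 nM (median 0.019), and for KLF7 from 50 nM to 250 nM (0.17 in Ku, 0.0018 in Cov). The median of all active genes was 0.29 in Ku and 0.31 in Cov cells at 250 nM on equal-median scaling, so the values of KLF13 (0.28) and KLF6 (0.37) lie near the typical gene. At 250 nM the members' median remained below that of all active genes, by 0.37 and 0.84 on equal-median and 0.49 and 0.93 on median-of-ratios scaling in Ku and Cov cells. Of all active genes, equal-median scaling called 1654 lower and 3831 higher in Ku and 1611 and 3764 in Cov cells at 250 nM, against 9774 and 7, and 11971 and 15.

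An adjusted p under 0.05 called 2 members lower in Ku cells at 50 nM, KLF3 and KLF7, where 40.2% of active genes passed, and fitting all rows left 3 lower in Ku cells from 50 nM to 250 nM, against 8.05% of rows. Leaving out 1 library gave 0 members lower in Ku cells at 50 nM, 6 to 8 at 250 nM and 1 to 6 from 50 nM to 250 nM. In Cov cells it gave 3 to 8 at 50 nM (3 without DMSO replicate 2, against 30.3% of active genes), 10 at 250 nM and 4 to 8 from 50 nM to 250 nM. The KLF5 call in Cov cells at 50 nM was lost without DMSO replicate 1 (adjusted p = 0.0011), without DMSO replicate 2 (0.0023) or without 50 nM replicate 1 (0.0011). In Ku cells at 50 nM KLF4 (0.02) turned to -0.091 without 50 nM replicate 1 and -0.05 without DMSO replicate 2, and KLF13 (-0.08), which spanned -0.23 to 0.057 over the left-out libraries, to 0.01 without 50 nM replicate 2 and 0.057 without DMSO replicate 1. A pseudocount of 0.1 changed 3 of 60 gene calls, all gained, among them KLF2 in Ku cells at 250 nM, which lies at the low value of rows without signal. It moved the members' median from -0.15 to -0.33 in Ku cells at 50 nM and from -1.06 to -1.89 in Cov cells from 50 nM to 250 nM, beside -0.49 and -0.51 for all active genes. The cause of these changes was not tested.

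Deviations of libraries with the same number correlated at -0.0703 to 0.0282, so no effect shared by libraries of the same number was visible. This cannot show whether those libraries were set up together. With the replicate block, 6 of 60 gene calls were lost and 5 members were called lower in Cov cells from 50 nM to 250 nM, where the share of all active genes fell from 24.4% to 7.93%.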
